A study of Mus musculus with 28 samples.

Results

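The genes described here are the replication-dependent histone genes of the Hist1 cluster on mouse chromosome 13, taken as every protein-coding gene on that chromosome whose symbol starts with Hist1. The GENCODE annotation of mm10 (GRCm38) holds 56 such symbols, and leaving out 2 pseudogenes gave 54 members of 21755 protein-coding genes on chromosomes 1 to 19 and X. The family was chosen by its gene symbols, but it was selected on a count of histone gene starts inside domains of these same files, which was known to be higher after EHMT2 depletion. The placement of the genes in the domains is therefore a description, and no test was made of it.

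The data are domains of H3K9me2, a histone mark of repressed chromatin, called from ultra-low-input native chromatin immunoprecipitation (ULI-NChIP) of mouse embryonic stem cells (mESCs). EHMT2, also known as G9a, is the methyltransferase that deposits this mark together with EHMT1. All sorted cells were of the line EHMT2-dTAG-mcherry MERV-GFP of BL6/129 hybrid background, a single clone in which the endogenous Ehmt2 gene carries a degron (dTAG) and an mCherry reporter, and into which a GFP reporter driven by the MERVL retroviral promoter was introduced as a separate plasmid. They were exposed for 72 h to DMSO, the solvent, or to dTAG-13, which removes the tagged EHMT2, and then separated by the reporter, cells without GFP being called mESCs and those with GFP 2-cell-like cells (2CLCs). The latter arise at low frequency in culture and share features with the 2-cell stage of the embryo. The 4 sorted conditions, called mESC DMSO, mESC dTAG, 2CLC DMSO and 2CLC dTAG, had 3 immunoprecipitation and 3 input libraries each. According to the labels the retinoid TTNBP was added for 2 of the replicates, which are not named, whereas the methods of the study mention it without that limit. Unsorted mESCs of the line EHMT2-dTAG-mcherry, kept for 24 h in DMSO, had 2 immunoprecipitation and 2 input libraries, which brings the series to 28 libraries. One further domain set names neither a cell state nor a treatment. It is called the unnamed set and was assigned to no group.

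Each condition is represented by 1 list of domain positions, with no value per library, so that neither the spread between cultures nor the depth behind a domain is known. A gene is recorded as inside or outside a domain, on bins of 5 kb, and being inside is not a level of the mark. Domains start where the log2 enrichment over input is in a high percentile of the bins and end where it is in a low one. A gene can therefore enter a domain by a change of rank along the genome without a gain of the mark. The study reports that EHMT2 depletion lowered the mark globally in both sorted cell types. The files hold no expression values, and the sorted cell types could not be checked against marker genes.

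Histones package DNA. Pairs of H2A and H2B and pairs of H3 and H4 form the core of the nucleosome, and H1 binds the linker DNA between nucleosomes. The replication-dependent genes make the bulk of histone protein while DNA is copied in S phase. They lack introns, lie in clusters, exist in many near-identical copies, and their transcripts end in a stem-loop bound by SLBP in place of a poly(A) tail. In the nucleus the clusters gather in the histone locus body, organised by the coactivator NPAT. Hist1h1t, Hist1h2ba and Hist1h2aa are best known for their expression in male germ cells.

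In order along the chromosome the 54 starts fall into 3 subclusters, separated by gaps of over 200 kb. Subcluster 1 has 18 genes over 118 kb, from Hist1h2bl (chromosome 13, start 21716143) to Hist1h2br (start 21833743). Subcluster 2 has 5 genes within 7.65 kb, from Hist1h2ah (start 22035568) to Hist1h2bj (start 22043214). Subcluster 3 has 31 genes over 403 kb, from Hist1h4h (start 23531050) to Hist1h2aa (start 23934462). The gap between subclusters 1 and 2 is 202 kb, just over the limit. The gap between subclusters 2 and 3 is 1488 kb and is mostly filled by the Vmn1r genes, which encode vomeronasal receptors.

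To compare the placement of histone genes in H3K9me2 domains between the DMSO and dTAG sets, each start was placed in each set. In the DMSO sets no Hist1 gene was in a domain. The count was 0 of 54 in mESC DMSO, against 22.3% of all protein-coding starts, and 0 of 54 in 2CLC DMSO, against 23.2%. In mESC dTAG, 6 of 54 members (11.1%) were inside a domain, against 23.6% of all protein-coding starts. In 2CLC dTAG the number was 22 of 54 (40.7%), against 26.5%. The unnamed set held 2 of 54 (3.70%), against 30.0%. On chromosome 13 the other 784 protein-coding genes had 23.2% inside in mESC DMSO and 31.5% in mESC dTAG. For the same genes the share was 28.4% in 2CLC DMSO, 35.6% in 2CLC dTAG and 38.6% in the unnamed set.

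Because no member was inside a domain in DMSO, the genes inside a dTAG domain are also those that entered one. In mESCs 6 members (11.1%) entered, where 6.32% of all protein-coding genes did. In 2CLCs 22 members (40.7%) entered, where 7.52% of all protein-coding genes did. Among the other 784 protein-coding genes of chromosome 13, 13.0% entered in mESCs and 12.0% in 2CLCs. No member left a domain, 0 of 54 in mESCs against 5.08% of all protein-coding genes and 0 of 54 in 2CLCs against 4.25%, but none was in a domain from which it could leave. These shares chose the genes and carry no test. The members also share domains, so that the 22 entries come from 3 domains and from 11 of the 33 distinct 5 kb bins that hold a Hist1 start.

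**Figure D1:**
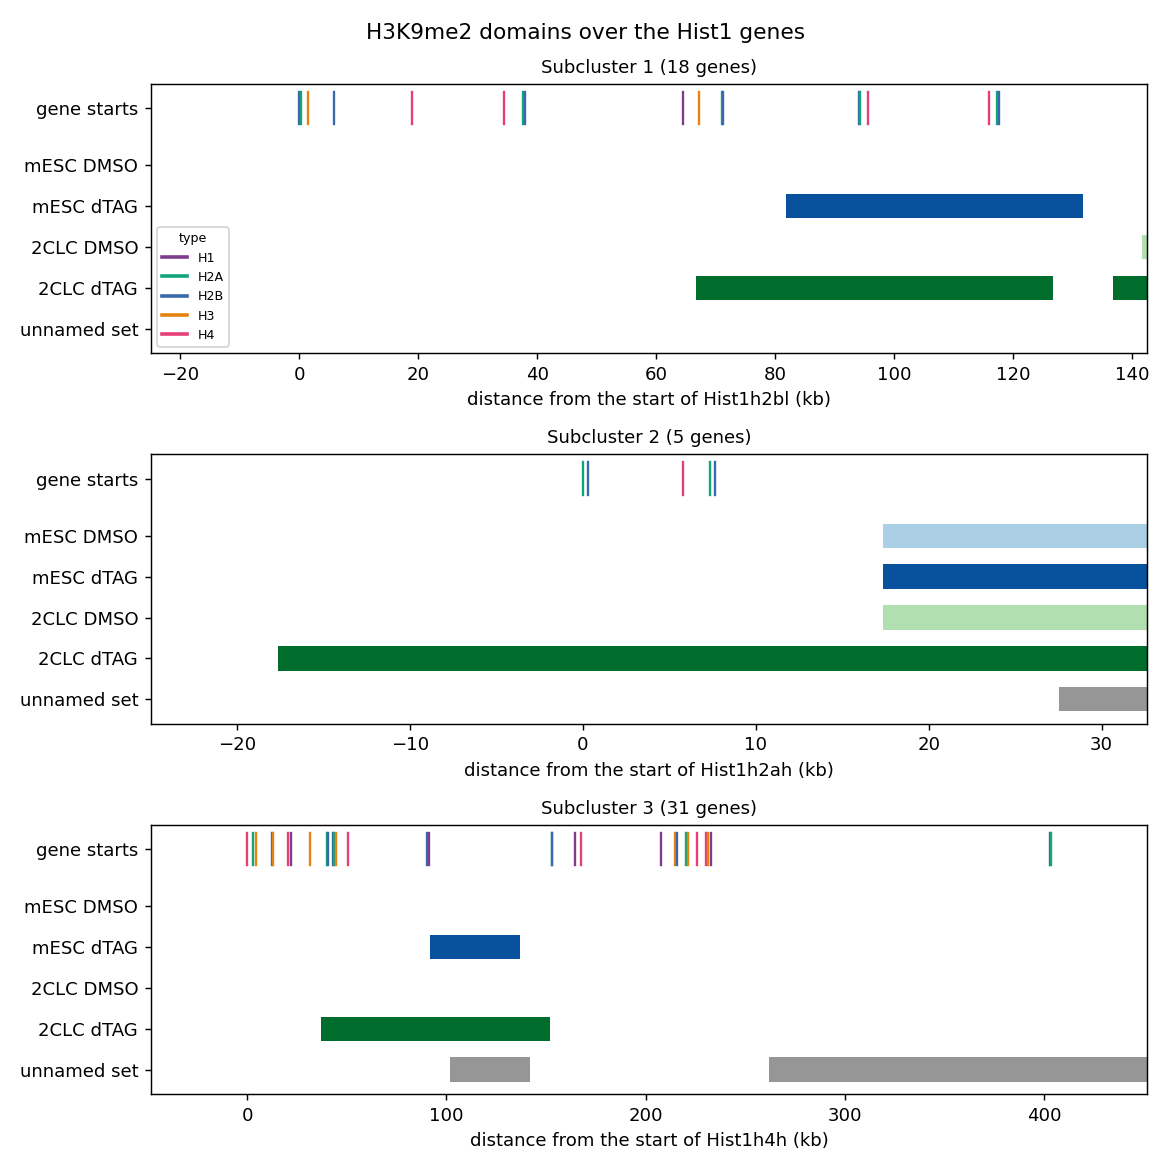
Map of the 3 Hist1 subclusters, with the distance from the first gene start of each subcluster in kb on the horizontal axis and the 5 domain sets as rows. Short vertical lines are gene starts coloured by histone type, bars are H3K9me2 domains, and bars that reach the frame continue beyond it. The DMSO rows have no bar over a gene start, 2CLC dTAG has 1 bar over part of subcluster 1, 1 over all of subcluster 2 and 1 over part of subcluster 3, and mESC dTAG has a bar over the last 6 starts of subcluster 1.

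In subcluster 1 both dTAG sets had a domain over gene starts. In mESC dTAG a domain of 50 kb (chromosome 13, 21797918 to 21847917) held Hist1h2bq, Hist1h2ao, Hist1h4m, Hist1h4n, Hist1h2ap and Hist1h2br, a run of H2A, H2B and H4 genes at the end of the subcluster. In 2CLC dTAG a domain of 60 kb (21782918 to 21842917) held the same 6 genes and 3 more to their left, the H3 gene Hist1h3i and the facing pair Hist1h2an and Hist1h2bp. All 6 members that entered in mESCs thus entered in 2CLCs, which is 100% of the mESC list and 27.3% of the 2CLC list. Over all protein-coding genes, the 592 that entered in both cell states made up 43.1% of the mESC list and 36.2% of the 2CLC list. The remaining 9 genes of subcluster 1, from Hist1h2bl to the linker histone gene Hist1h1b, were outside the domains of all 5 sets.

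The right ends of both domains are 1 bin of 5 kb apart, and neither contains a gene of another family. They were wider than the median of the domains without overlap with the corresponding DMSO set, which was 35 kb over 1635 such domains in mESC dTAG and 30 kb over 2725 in 2CLC dTAG. In mESC DMSO and 2CLC DMSO the 6 shared genes lay at least 219 kb and at least 24.2 kb from the nearest domain, the latter being a domain of 25 kb on the right side of the subcluster (21857918 to 21882917).

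The sequence under the domain common to both dTAG sets is largely an inverted repeat. The genes Hist1h2bq, Hist1h2ao and Hist1h4m lie in its left arm (21792574 to 21812409, 19.8 kb), and Hist1h4n, Hist1h2ap and Hist1h2br lie in mirrored order in the right arm (21831532 to 21851277, 19.7 kb). The arms share 81.8% of the 50-mers of the left arm, and their longest identical run is 8534 bp. In the mESC dTAG domain 78.3% of all 50-mers occur more than once in the genome, and 59.6% also occur inverted within the domain itself. In the 2CLC dTAG domain the values are 64.0% and 40.1%. The stretch between the facing starts of Hist1h2bq and Hist1h2ao is shown beside the stretch between Hist1h2br and Hist1h2ap, read on the opposite strand, because the shorter one is contained in the longer one base for base over all 167 bp. Both are cut to the bases between the innermost starts of GENCODE and RefSeq, written 5′ to 3′ from GRCm38, with capitals at the CCAAT box (CCAAT on either strand).
Hist1h2bq/Hist1h2ao, chr13:21810200-21810366, plus strand: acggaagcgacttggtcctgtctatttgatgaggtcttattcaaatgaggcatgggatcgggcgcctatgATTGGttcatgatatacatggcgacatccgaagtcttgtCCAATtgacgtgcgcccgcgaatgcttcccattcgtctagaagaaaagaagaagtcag
Hist1h2br/Hist1h2ap, chr13:21833508-21833742, minus strand: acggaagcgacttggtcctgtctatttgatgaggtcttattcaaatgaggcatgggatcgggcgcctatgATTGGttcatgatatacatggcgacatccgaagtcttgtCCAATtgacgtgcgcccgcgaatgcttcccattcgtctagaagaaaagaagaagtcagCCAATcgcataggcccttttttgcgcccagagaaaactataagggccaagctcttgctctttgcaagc
Reads from the identical runs cannot be assigned to 1 arm, and the alignment of the study placed reads with several matches. The calls at these 6 genes are therefore uncertain as calls of single genes, and the part of the repeated sequence in the domain was not tested.

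Subcluster 2 changed as a whole and only in 2CLC dTAG. Its 5 genes are the facing pair Hist1h2ah and Hist1h2bk, the H4 gene Hist1h4i, and the facing pair Hist1h2ag and Hist1h2bj. In mESC DMSO, mESC dTAG and 2CLC DMSO the first domain on the side of the Vmn1r genes began at 22052917, between 9.70 kb and 17.3 kb to the right of the 5 starts. This domain measured 1245 kb in both DMSO sets and 25 kb in mESC dTAG, where the Vmn1r stretch was divided into several domains. In 2CLC dTAG it began at 22017918, which is 35 kb further to the left, and the domain (22017918 to 23097915, 1080 kb) held all 5 histone genes beside 28 Vmn1r genes. Here the domain overlaps one of 2CLC DMSO and differs in its edge, whereas the domains of subclusters 1 and 3 shared no base with the 2CLC DMSO set. In the unnamed set the edge lay at 22063106, 10 kb to the right of its place in mESC DMSO. Around these 5 starts the share of repeated 50-mers within 500 bp ranged from 19.6% to 50.5%, and in the 3 bins that hold them the median was 11.9%.

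In subcluster 3 a single domain of 2CLC dTAG (23567915 to 23682914, 115 kb) held 8 of 31 starts, a share close to the 26.5% of all protein-coding starts. They are Hist1h2ae and Hist1h2bg, Hist1h2bf and Hist1h2ad, Hist1h3d, Hist1h4d, Hist1h2be and the linker histone gene Hist1h1e, so that all 5 histone types were represented. The domain shares no base with the 2CLC DMSO set. Its right part is a stretch with no histone start, 61 kb between Hist1h1e and Hist1h2ac. A domain of mESC dTAG (23622915 to 23667914, 45 kb) lay in that same stretch, 357 bp from the start of Hist1h1e and 1791 bp from that of Hist1h2be, and the unnamed set had a domain of 40 kb there (23633104 to 23673103). This stretch contains a pair of neighbouring 5 kb bins with 87.2% and 97.3% of soft-masked sequence (lower case in the assembly). In these bins 78.9% and 93.6% of 50-mers are repeated in the genome.

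The other 23 genes of subcluster 3 were outside the domains of the sorted sets. They include 4 of its 5 H1 genes, Hist1h1d, Hist1h1t, Hist1h1c and Hist1h1a, and 6 of its 7 H3 genes. The testis-type pair Hist1h2ba and Hist1h2aa stands 170 kb apart from the next histone gene, and its starts were inside a domain in the unnamed set only (23793104 to 24038103, 245 kb). That domain also covers Slc17a2, Slc17a3, Slc17a1 and Slc17a4, which encode solute carriers and lie between Hist1h1a and this pair, and Scgn beyond it, but not Trim38, the gene next to Hist1h1a. In 2CLC dTAG the nearest domain to Hist1h2ba and Hist1h2aa was at 23992915 to 24037914.

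Several of these calls rest on distances below the 5 kb of a bin. Hist1h3i, with its start 452 bp within the left edge of the 2CLC dTAG domain, is the member nearest to an edge among those counted as inside. Just outside are Hist1h1b, 2293 bp to the left of that edge, and the facing pair Hist1h2ac and Hist1h2bc, 1034 bp and 1285 bp to the right of the domain of subcluster 3. Hist1h2ac is also the member closest to a 2CLC dTAG domain among those outside all sorted sets, and Hist1h1a, at 80.8 kb, is the farthest. Hist1h2be has an annotated gene body of 37455 bp with its start beside Hist1h1e, and RefSeq places that start 30 bp away.

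Distances show how far the remaining genes were from a domain. The median distance over the 54 starts was 251 kb in mESC DMSO and 186 kb in 2CLC DMSO. It was 44.1 kb in mESC dTAG, 13.8 kb in 2CLC dTAG and 46.9 kb in the unnamed set. Distances were not measured for other genes, so it is not known whether shorter distances with dTAG are particular to the histone genes. In subcluster 3, none of whose 31 starts entered a domain in mESCs, the median went from 224 kb in DMSO to 71.3 kb in dTAG. For most of these starts the nearest mESC dTAG domain was the same one (23622915 to 23667914, 45 kb). The genes are therefore not separate observations of a shorter distance. Among those 31, the highest value was 327 kb in mESC DMSO and 95.8 kb in mESC dTAG, while the lowest values were 88.5 kb and 0.357 kb. In 2CLCs the 31 starts ranged from 173 kb to 406 kb in DMSO, and the 23 outside in dTAG from 1.03 kb to 80.8 kb. Most of these 23 values are distances to the same domain (23567915 to 23682914), so they too are not separate observations. Subcluster 2 had the same distances, 9.70 kb to 17.3 kb, in mESC DMSO, mESC dTAG and 2CLC DMSO.

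**Figure D2:**
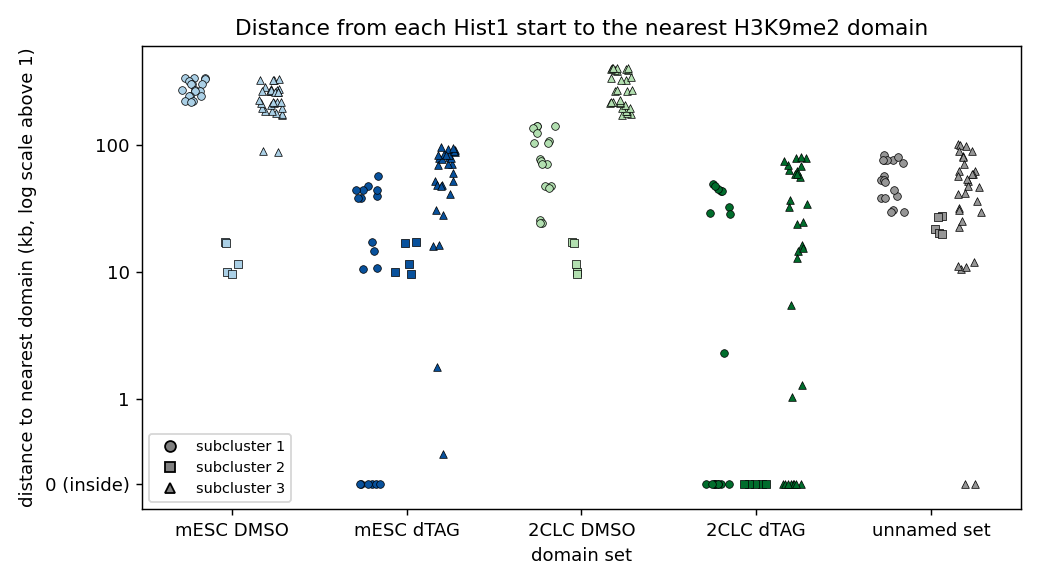
Distance from each of the 54 Hist1 starts to the nearest H3K9me2 domain (vertical axis, kb, logarithmic above 1 kb and with 0 for starts inside a domain) in the 5 domain sets (horizontal axis). Each point is a gene and the shape gives the subcluster, with a small sideways spread for display. No point of the DMSO sets reaches 0, 6 points of mESC dTAG and 22 of 2CLC dTAG do, and the squares of subcluster 2 leave their place near 10 kb in 2CLC dTAG alone among the sorted sets.

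The members were then grouped by histone type. In 2CLC dTAG 7 of 13 H2A genes (53.8%) and 8 of 15 H2B genes (53.3%) were inside a domain. The corresponding numbers were 4 of 11 for H4 (36.4%), 2 of 9 for H3 (22.2%) and 1 of 6 for H1 (16.7%). In mESC dTAG 2 H2A, 2 H2B and 2 H4 genes were inside and no H3 or H1 gene was. Types are not independent of position. Subcluster 2, which was covered whole, has 2 H2A, 2 H2B and 1 H4 gene and no H1 or H3 gene, while 5 of the 6 H1 genes and 7 of the 9 H3 genes are in subcluster 3. The H1 genes inside and outside were Hist1h1e in the 115 kb domain and Hist1h1a, Hist1h1b, Hist1h1c, Hist1h1d and Hist1h1t in none.

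**Figure D3:**
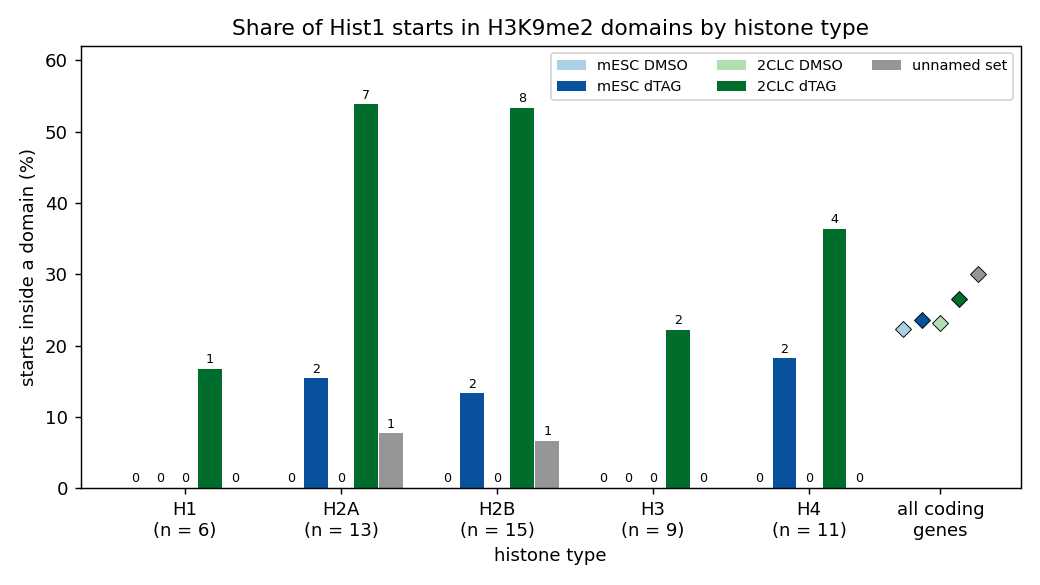
Share of Hist1 starts inside an H3K9me2 domain (vertical axis, %) for each histone type (horizontal axis) and domain set (colour). The number above a bar is the count of genes, n is the number of members of the type, and diamonds give the share of all 21755 protein-coding starts. H2A, H2B and H4 reach 53.8%, 53.3% and 36.4% in 2CLC dTAG, above the diamond at 26.5%. H1, with 1 of 6 genes, and H3, with 2 of 9, stay below it.

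Within the subclusters 24 of the 54 genes form 12 divergent pairs, with facing starts within 1000 bp, and 11 of the 12 are an H2A gene with an H2B gene. A pair shares the DNA between its starts, and in all 12 both genes had the same placement in the 4 sorted sets, which their spacing makes nearly certain on 5 kb bins. In 2CLC dTAG 7 pairs were inside a domain. The stretch between the innermost starts measured 163 to 607 bp, and each of the 12 contained a CCAAT box, the element bound by NF-Y. The 3 stretches that follow stand for the other placements, namely a pair outside all sets (Hist1h2bl and Hist1h2ai), a pair inside in 2CLC dTAG only (Hist1h2ae and Hist1h2bg) and the testis-type pair inside in the unnamed set only. They are plus-strand GRCm38 sequence, and capitals mark the CCAAT box (CCAAT), the TATA box (TATAAA), the octamer bound by OCT1 (ATTTGCAT) and the AC box of H1 promoters (AAACACA), each on either strand.
Hist1h2bl/Hist1h2ai, chr13:21716184-21716411: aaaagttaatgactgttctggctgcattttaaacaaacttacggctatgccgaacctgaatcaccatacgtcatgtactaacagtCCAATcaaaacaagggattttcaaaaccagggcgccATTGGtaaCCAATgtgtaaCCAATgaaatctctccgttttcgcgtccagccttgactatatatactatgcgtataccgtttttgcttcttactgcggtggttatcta
Hist1h2ae/Hist1h2bg, chr13:23571221-23571395: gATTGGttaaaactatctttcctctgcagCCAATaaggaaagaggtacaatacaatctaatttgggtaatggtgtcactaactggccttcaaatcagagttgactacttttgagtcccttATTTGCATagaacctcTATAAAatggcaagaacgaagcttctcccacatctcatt
Hist1h2ba/Hist1h2aa, chr13:23934157-23934436: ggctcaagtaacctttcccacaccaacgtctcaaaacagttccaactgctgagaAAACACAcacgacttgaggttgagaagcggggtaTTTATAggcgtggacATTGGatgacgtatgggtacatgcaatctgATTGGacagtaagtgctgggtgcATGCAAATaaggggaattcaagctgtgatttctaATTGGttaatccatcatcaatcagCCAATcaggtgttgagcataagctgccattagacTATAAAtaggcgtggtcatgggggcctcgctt
The number of CCAAT boxes was 4 for Hist1h2bl/Hist1h2ai, 2 for Hist1h2ae/Hist1h2bg and 4 for Hist1h2ba/Hist1h2aa, so that these letters occur in pairs of every placement.

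The same motifs were counted in the RefSeq promoter windows of GRCm38, 250 bases before to 50 after a start, which could be matched for 51 of the 54 members. The CCAAT box was present in 43 of 51 member windows (84.3%) and in 37.4% of all 32851 windows. It was found in every matched window of an H1, H2A, H2B or H3 gene and in 3 of 11 windows of H4 genes. TATAAA was in 31 member windows (60.8%) and in 13.6% of all windows. The octamer was in 10 member windows (19.6%, all of them H2A or H2B genes) and in 1.74% of all, and the AC box was in 9 (17.6%, among them 5 of 6 H1 genes) and in 7.18% of all. Set against placement in 2CLC dTAG, the CCAAT box was in 19 of 22 windows inside and 24 of 29 outside, TATAAA in 15 and 16, the octamer in 4 and 6, and the AC box in 1 and 8 of the same windows. Of the 9 windows with an AC box, 5 were of H1, 2 of H2A and 2 of H2B genes. A match describes letters and not a bound site.

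The stem-loop of histone transcripts was searched as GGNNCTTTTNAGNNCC on the gene's strand, within 300 bp of the annotated gene end. It was found at 34 of 54 members and at 48 of 21755 protein-coding genes (0.221%), and 7 of the 14 genes outside the family were other replication-dependent histone genes. Of the 22 members inside a 2CLC dTAG domain, 13 had it. The 20 members without a match include genes with long annotated bodies such as Hist1h2be, and a missing match says only that these letters are not in the window. The following sites with 5 bases on each side, stem-loop in capitals, are shown for a gene outside all sets, for both copies in the inverted repeat, for a gene inside in 2CLC dTAG only and for a testis-type gene, to show which letters differ.
Hist1h3h: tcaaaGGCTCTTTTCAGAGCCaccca
Hist1h2ao: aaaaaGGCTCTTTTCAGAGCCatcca
Hist1h2ap: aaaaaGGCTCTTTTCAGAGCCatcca
Hist1h2ae: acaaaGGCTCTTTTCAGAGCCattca
Hist1h2ba: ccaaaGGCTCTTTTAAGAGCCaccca
The form in Hist1h3h, Hist1h2ao, Hist1h2ap and Hist1h2ae was the most frequent, with 22 of the 34 sites, and that of Hist1h2ba was found at 6.

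Sequence that occurs more than once in the genome, in this family or elsewhere, surrounds many of these starts, which bears on how reads are placed. In 5 kb bins the median share of repeated 50-mers was 10.3% where a member starts. It was 6.7% over all bins of the region around the genes, member bins included. Within 500 bp of a start, the share of 50-mers that occur more than once in the genome, counted on both strands, had a median of 30.7% over the 54 members. It was lowest for H1 genes, from 0% to 15.5%, and its median was 47.4% for H2A and 42.7% for H2B genes. The 6 members inside domains of both dTAG sets had values from 90.8% to 100%. The 16 members inside in 2CLC dTAG only ranged from 0% to 54.6% with a median of 42.9%, and the 32 outside all sorted sets ranged from 0% to 49.2% with a median of 25.3%. The first group does not overlap the others, while these overlap over most of their range. The first group lies in the inverted repeat of subcluster 1, and the part of repeated sequence in the calls was not tested. In that subcluster the 11 bins inside the 2CLC dTAG domain had a median of 55.5% repeated 50-mers, from 7.28% to 100%. The 14 bins outside had a median of 6.83%, from 0.3% to 99%. In subcluster 3 the 23 bins inside the 2CLC dTAG domain had a median of 5.64% repeated 50-mers and 30.5% soft-masked bases, and the 59 bins outside had 1.56% and 20.8%. Their median GC content was 42.1% and 41.9%. Over the 3 subclusters 8 bins had more than 70% repeated 50-mers. Of these, 7 were inside 2CLC dTAG domains, compared with 37 of all 110 bins, and the same 7 were inside mESC dTAG domains. They fall in a domain of subcluster 1 and a domain of subcluster 3 in each set, so the bins are not separate observations. The remaining one of the 8 bins, between Hist1h2bn and Hist1h1b, had 99.0% and was outside all sets.

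**Figure D4:**
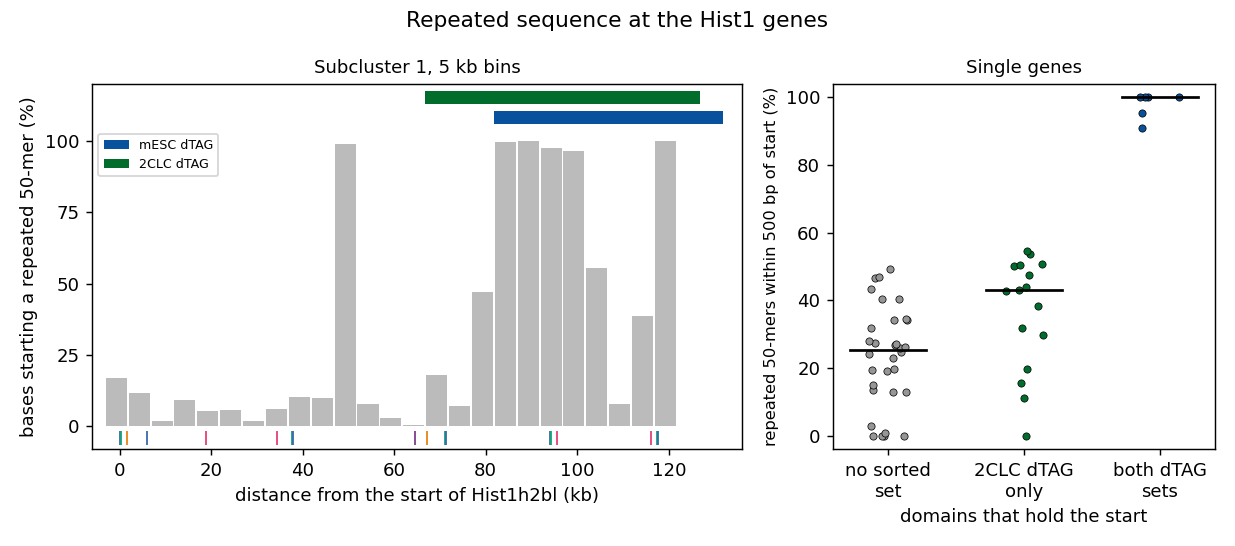
Left, share of bases that start a 50-mer found more than once in the genome (vertical axis, %) in 5 kb bins of subcluster 1, by distance from the start of Hist1h2bl (kb). Bars on top are the mESC dTAG and 2CLC dTAG domains and small ticks below are gene starts in the colours of the map. Right, the same share within 500 bp of each member start, with a point per gene and the median as a line, for the 32 genes in no sorted set, the 16 in 2CLC dTAG only and the 6 in both dTAG sets. The last group sits between 90.8% and 100%, above all other genes.

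Genes of other families lie between the histone genes. The 6 genes of other families inside subcluster 3, Hfe, Trim38, Slc17a2, Slc17a3, Slc17a1 and Slc17a4, were outside the domains of all 4 sorted sets. They lie between the last covered histone gene and the end of the subcluster, in a stretch where the histone genes around them were outside too. The 3 genes between subclusters 1 and 2, Zfp184, Pom121l2 and Prss16, were outside the domains of all 5 sets. Prss16, with its start at 22009742, thus differs from the neighbouring subcluster 2, whose domain in 2CLC dTAG begins to the right of it. Between subclusters 2 and 3, 36 Vmn1r starts were inside a domain in both DMSO sets and 35 in each dTAG set. Zfp322a, a zinc finger gene in that stretch, was inside in mESC dTAG only.

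Histone genes elsewhere in the genome were placed in the same sets, where 22.3% (mESC DMSO), 23.6% (mESC dTAG), 23.2% (2CLC DMSO) and 26.5% (2CLC dTAG) of all protein-coding starts were inside. None of the 13 replication-dependent histone genes of the Hist2, Hist3 and Hist4 groups, which lie on chromosomes 3, 11 and 6, was in a domain of any of the 5 sets. The closest of them to a 2CLC dTAG domain was Hist2h2bb at 14.6 kb. Among 18 replication-independent histone genes, whose products are made throughout the cell cycle or in the germ line, the mESC sets had 3 inside with DMSO and 5 with dTAG, and the 2CLC sets had 4 and 6. Of these, H2afb1, H2afb2 and H2bfm on chromosome X were inside in all 4 sorted sets, and H2afb3 in all but mESC DMSO. H2afv, a variant of the H2A.Z kind, was inside in both dTAG sets and neither DMSO set. The testis linker histone gene H1fnt was inside in 2CLC dTAG alone among the sorted sets, and also in the unnamed set.

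Next came the genes that serve histone transcription and RNA processing, to be read against the same shares over all protein-coding genes. Of 16 such genes, among them Npat, Casp8ap2 and Slbp, the mESC sets had 0 inside with DMSO and 1 with dTAG, and the 2CLC sets had 1 and 2. These were Cstf2, a cleavage factor gene on chromosome X that was inside in all sets but mESC DMSO, and Ccne2, which encodes cyclin E2 and was inside in 2CLC dTAG only. Of 13 histone chaperone genes, Hira was inside in mESC dTAG and Atrx in both dTAG sets, and the other 11 were outside all sorted sets.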

How the data were processed

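The deposited files hold domain positions in mm10 with a score of 0 in every row, so the score given by the authors was not used. Per the submitters' processing notes the tools were STAR 2.7.10, Picard 2.26.0, SAMtools 1.14, bedtools 2.30.0, deepTools 3.5.1 and R 4.1.2. Following the methods of the study, multi-mapping reads were placed, duplicates and high-signal regions removed, and genome-scaled coverage taken in 5 kb steps. Domains were grown from bins with a high log2 ratio to input until a low one. Pooling of replicates was not stated, and depth is unknown.

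Gene starts came from GENCODE M21 by strand, on chromosomes 1 to 19 and X, with Python 3.11.15 and numpy 2.4.6. Placement was tested on simulated data. Repeated 50-mers were counted over GRCm38.p6 on both strands, and promoters came from RefSeq. No test was made, since each condition is 1 set. The members, lists and alternatives were chosen with earlier results of these data known. Genes were named when inside a sorted set, first or last in a subcluster, nearest to or farthest from a 2CLC dTAG domain, or, among neighbours and lists, when placed differently. Genes named otherwise (as examples of a motif, pair or repeat) were chosen after their values were seen.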

Additional observations from a re-analysis of the deposited data

Results flagged for a closer look

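The unnamed set, which was assigned to no group, held 2 of 54 member starts in a domain (3.70%), against 30.0% of all protein-coding starts. They are those of the facing pair Hist1h2ba and Hist1h2aa in a single domain, where both DMSO sets held 0. The pair is listed because its placement lies in data outside the sorted conditions. The domain measured 245 kb, and the start of each gene lay inside it under every placement rule tried.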

How the results depend on the processing

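Each of the 6 shares was recomputed under 12 alternatives, and 66 of the 72 values stayed within the Wilson 95% interval of the share as reported. The other 6 came from leaving out a subcluster. That interval treats genes as independent, which genes in a shared domain are not, so it serves as a yardstick only. The entering shares repeat the dTAG shares under every alternative, because no member was in a DMSO domain. They are therefore no separate check. Without subcluster 1, the share in mESC dTAG domains, and with it the share entering in mESCs, was 0%, so the mESC result rests on that subcluster. Without subcluster 3 both were 26.1%, and the share in 2CLC dTAG domains and the share entering in 2CLCs were 60.9%. In 2CLC dTAG the other alternatives gave 31.5% (domains shortened by 5 kb at each end) to 46.3% (start within 5 kb of a domain). Both DMSO shares were 0% throughout. RefSeq starts, an alternative added after seeing the data, gave 11.8% and 43.1% of 51 members. Gaps of over 100 kb gave 4 subclusters and gaps of over 500 kb gave 2. No paired analysis was possible because each condition is 1 domain set with no column per library, and leaving out a replicate was not possible for the same reason.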
